A study of Rattus norvegicus with 8 samples.

Results

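Voltage-gated sodium and calcium channels are the proteins through which a neuron fires and through which firing opens calcium entry. In a sodium channel a single large alpha subunit forms the pore and beta subunits adjust its gating and its place in the membrane. A voltage-gated calcium channel likewise has an alpha1 pore, of the Cav1 (L-type), Cav2 (P/Q-, N- and R-type) or Cav3 (T-type) family. Alpha2delta and beta subunits carry the Cav1 and Cav2 pores to the membrane, and several proteins first named calcium channel gamma subunits act as TARPs, auxiliary subunits that bring AMPA-type glutamate receptors to synapses. In the hippocampus these channels set the threshold, the bursting and the transmitter release of pyramidal cells, granule cells and interneurons.

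The genes were taken by name, as every noncontrol probe whose gene name in the scanner files began with Scn and a digit or with Cacn. This gave 40 genes, 14 for sodium and 26 for calcium channels, on 52 of the 30367 probes of the array, and each gene was read from its probe of highest mean over the 8 arrays. A gene entered the test when its probe exceeded background clearly, by the scanner software's mark, on each of the 4 arrays of vehicle or of Y+I. This held for 34 of the 40 genes, 11 sodium and 23 calcium, among 18803 features tested in all. Of these 34 genes, 29 were well above background on all 8 arrays.

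The animals were male Sprague Dawley rats, 3 months old, and the tissue was hippocampus. One group of 4 rats received vehicle for 7 days, and the other group of 4 received Y+I, which the series title gives as yohimbine and imipramine together. Tissue was taken 2 h after treatment, and each animal had its own 1-colour array. Yohimbine blocks alpha2-adrenoceptors and imipramine inhibits noradrenaline and serotonin reuptake. No group analysed here had a single drug, and dose and route are not given in the sources used here, so the comparison asks how the channel transcripts differed under the combination.

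Signals are given on the log2 scale after background subtraction and after centring every array on its own 75th percentile, so 0 is the brightness of that percentile and a difference of 1 is a 2-fold change. Values of different genes come from different probes and are not set against each other as levels. The 75th percentile was 1939 to 2106 scanner units on vehicle arrays and 1045 to 1971 on Y+I arrays. It was lowest in Y+I animals 2 and 4 (1408 and 1045). Of all spots 76.4% to 79.7% were well above background in vehicle, against 64.4% to 74.8% in Y+I. This share was lowest in Y+I animal 3, whose 75th percentile was 1971. The median SD between animals was 0.134 in vehicle and 0.239 in Y+I over all features, and 0.163 and 0.354 over the channel genes. The slide held vehicle in its first row and Y+I in its second, so the row and the drugs cannot be told apart. Of 9 listed hippocampal neuron markers 9 passed the same filter, with a summed signal of 3.51 to 3.88 in vehicle and 3.84 to 4.50 in Y+I. Prox1 passed through vehicle alone, with 2 of 4 Y+I arrays well above background. Striatal markers passed the filter too, 7 of 7, so passing it does not identify the tissue. Since the tissue is a mixture of cells, fewer cells of a type and less RNA per cell cannot be told apart in any value below.

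Array values of these genes are values of single 60-base probes, and 3 genes on which the results turn show what that means. Cacna1g, the pore of a T-type channel, had 2 probes close together on the minus strand of chromosome 10 of rat build rn4, and both gave a lower mean in Y+I. The brighter lies at chr10:83043933-83043992 and the dimmer at chr10:83044389-83044448. Capitals mark a stop codon that ends the single reading frame open through the brighter probe.
Cacna1g A_64_P004584: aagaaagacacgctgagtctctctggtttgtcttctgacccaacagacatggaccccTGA
Cacna1g A_44_P554973: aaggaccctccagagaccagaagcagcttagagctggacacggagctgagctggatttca

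Cacng6 and Cacng8 are shown because they neighbour each other on chromosome 1. In addition, the 2 probes of Cacng6 gave differences of opposite sign in the processed signal, though not under another background correction (normexp). The Cacng6 probes lie at chr1:64053631-64053690 and chr1:64051888-64051947, in that order below. The Cacng8 probe is listed at chr1:64069079-64071811, a span longer than the probe. None of these 3 sequences has a marked part.
Cacng6 A_64_P120445: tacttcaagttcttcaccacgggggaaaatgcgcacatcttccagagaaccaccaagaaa
Cacng6 A_64_P070891: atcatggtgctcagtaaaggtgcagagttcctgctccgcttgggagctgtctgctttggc
Cacng8 A_43_P13081: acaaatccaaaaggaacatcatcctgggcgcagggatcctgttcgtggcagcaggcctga

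One channel gene passed the test. Cacna1h, a T-type pore, rose in Y+I, and the other 33 genes tested did not pass at a limma adjusted p under 0.05. Over all 18803 features 2.33% passed, 0.739% as higher and 1.6% as lower, so 1 of 34 is close to the background. Without adjustment 6 channel genes had p under 0.05 as higher (Cacna1h, Cacng8, Scn3b, Cacng6, Cacna2d1 and Cacng4) and 3 as lower (Scn11a, Cacna1g and Scn4a), where 15.6% of all features did (6.46% as higher, 9.16% as lower). The 4 animals of one group did not overlap the 4 of the other for 8 of the 34 (23.5%, against 11.7% of all features, 5.04% as higher and 6.65% as lower). These were Cacna1h, Cacna2d1, Cacng2, Cacng8 and Scn3b as higher and Cacna1g, Scn11a and Scn4a as lower. Of the 34, 23 had a difference above 0 and 11 below, with a median of 0.17 where the median of all features was -0.02. Under normexp background correction the 2 medians were 0.20 and 0.09. Among the 29 genes well above background on all 8 arrays, 21 were above 0 (72.4%), against 7595 of the 15181 features of that kind. The filter kept 5 genes through vehicle alone, namely Cacna1d, Cacna2d2, Cacng1, Scn11a and Scn4a, and for these a lower mean in Y+I is partly set by that filter.

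**Figure D1:**
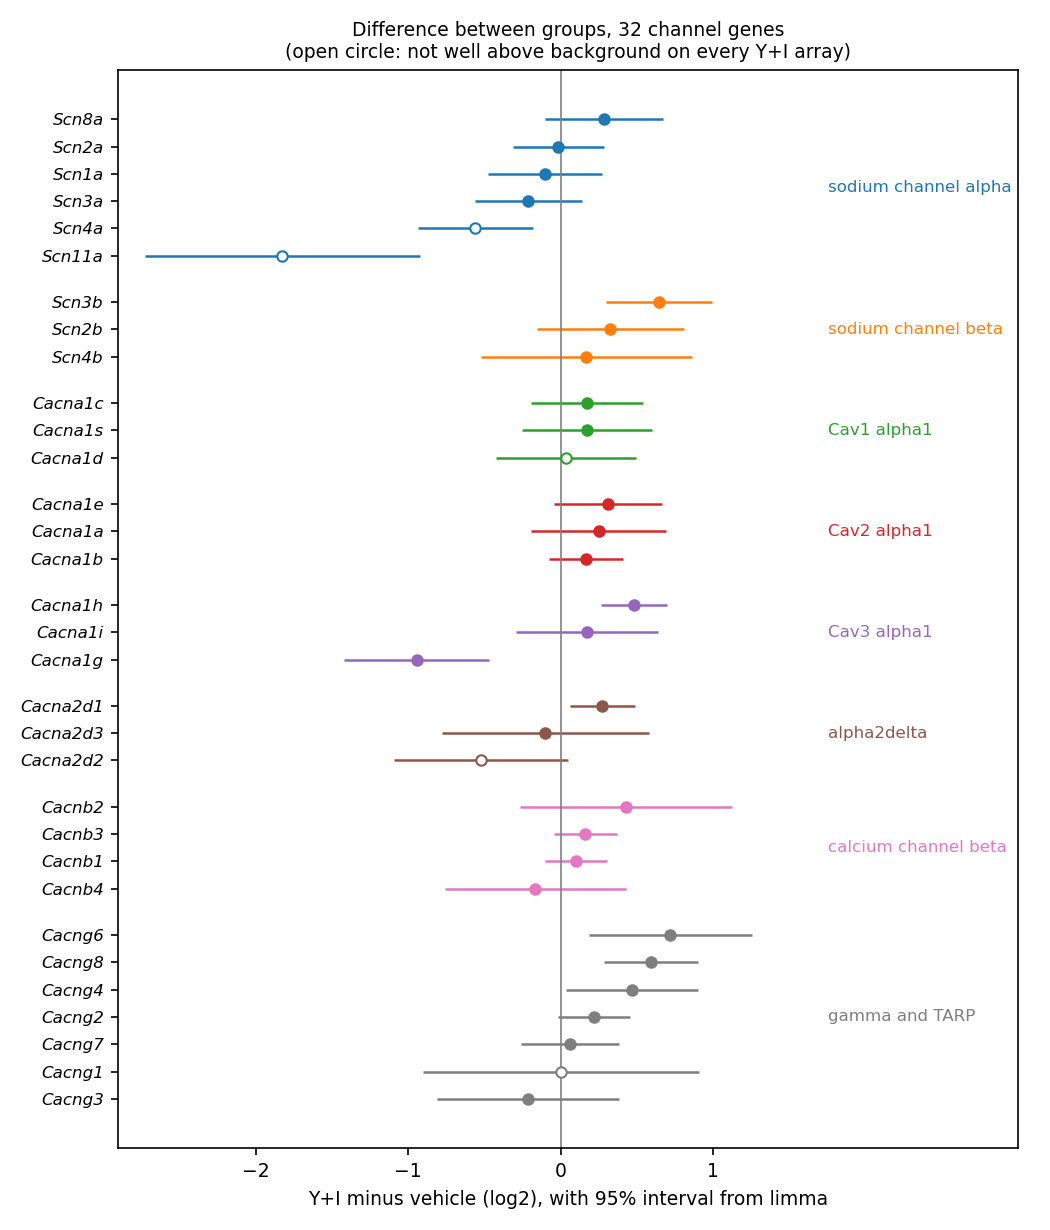
Difference between the groups (Y+I minus vehicle, log2, horizontal axis) for 32 channel genes tested, ordered by subunit role; points are means of 4 against 4 animals, bars are 95% intervals from limma, and open circles are the 5 genes with a Y+I array near background. The 3 sodium channel beta subunits plotted lie to the right of 0, 5 of the 6 sodium channel alpha subunits lie to the left, and Cacna1h and Cacna1g lie on opposite sides.

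Among the T-type pores, whose channels open near the resting potential and support burst firing, Cacna1h and Cacna1g lay on opposite sides of 0. Cacna1h measured 1.80, 1.70, 1.89 and 1.78 in vehicle animals 1 to 4 and 2.29, 2.31, 2.39 and 2.11 in Y+I animals 1 to 4. All 4 Y+I animals lay above all 4 vehicle animals. The mean went from 1.79 ± 0.08 (SD, n = 4) to 2.27 ± 0.12, a rise of 0.48 ± 0.10 (SE) or 1.39-fold, with a 95% interval of 0.26 to 0.70 and a limma adjusted p of 0.0404. It was read from 1 probe on 1 spot, at chr10:14621473-14621532 of rn4 on the minus strand. The call rested on most of the arrays together. The rise stayed between 0.44 and 0.53 whichever array was left out, but the adjusted p passed 0.05 only without Y+I animal 4 (0.0391). It was 0.101, 0.130, 0.0829 and 0.142 without vehicle animal 1, 2, 3 or 4 and 0.0890, 0.0682 and 0.0784 without Y+I animal 1, 2 or 3. The call was also lost with normexp (0.37, adjusted p = 0.0909), with quantile normalisation (0.0706) and with centring on the median (0.0777).

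Cacna1g was the channel gene with the second lowest difference. Its brighter probe measured -1.21, -1.16, -0.99 and -0.85 in vehicle and -1.64, -2.65, -1.82 and -1.88 in Y+I. Every Y+I animal lay below every vehicle animal, and Y+I animal 2 lay farthest down. The mean was -1.05 ± 0.17 in vehicle and -1.998 ± 0.44 in Y+I, a difference of -0.94 ± 0.21 (1.92-fold lower, 95% interval -1.42 to -0.47) that missed the threshold in limma (adjusted p = 0.0595). Without Y+I animal 2 the difference was -0.73 with an adjusted p of 0.0331, and with each other array left out it ran from -1.06 to -0.88 with an adjusted p of 0.0619 to 0.174. The dimmer probe measured -3.21, -3.19, -3.05 and -2.94 in vehicle and -3.49, -4.49, -3.71 and -3.87 in Y+I, in the same order of groups. Its difference was -0.79, against -0.94 at the brighter probe, and under normexp these became -0.35 and -0.78. Of the 12 other processing settings 8 put Cacna1g past the threshold, normexp (adjusted p = 0.0342) and median centring (0.0275) among them.

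The third T-type pore, Cacna1i, measured 1.82, 1.76, 1.77 and 1.77 in vehicle and 2.03, 1.65, 1.55 and 2.57 in Y+I. The Y+I animals lay on both sides of vehicle, and the difference was 0.17 (95% interval -0.29 to 0.64). Its other probe, shifted by a few bases along the same transcript, gave -0.04. Within each array, where between-array scaling cancels, log2 Cacna1g minus log2 Cacna1h was -2.85 ± 0.16 in vehicle and -4.27 ± 0.47 in Y+I. The groups did not overlap, and the difference was -1.42. Its exact two-sided permutation p was 0.0286, the smallest that 4 against 4 animals can give. That p was fixed by the separation of both genes in opposite directions, so it adds no support beyond them. The adjusted p over the 13 pairs of related subunits tested was 0.186. It rests in part on an equal p of Cacna2d1 with Cacna2d2, a contrast not read below, and would be larger without that pair.

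**Figure D2:**
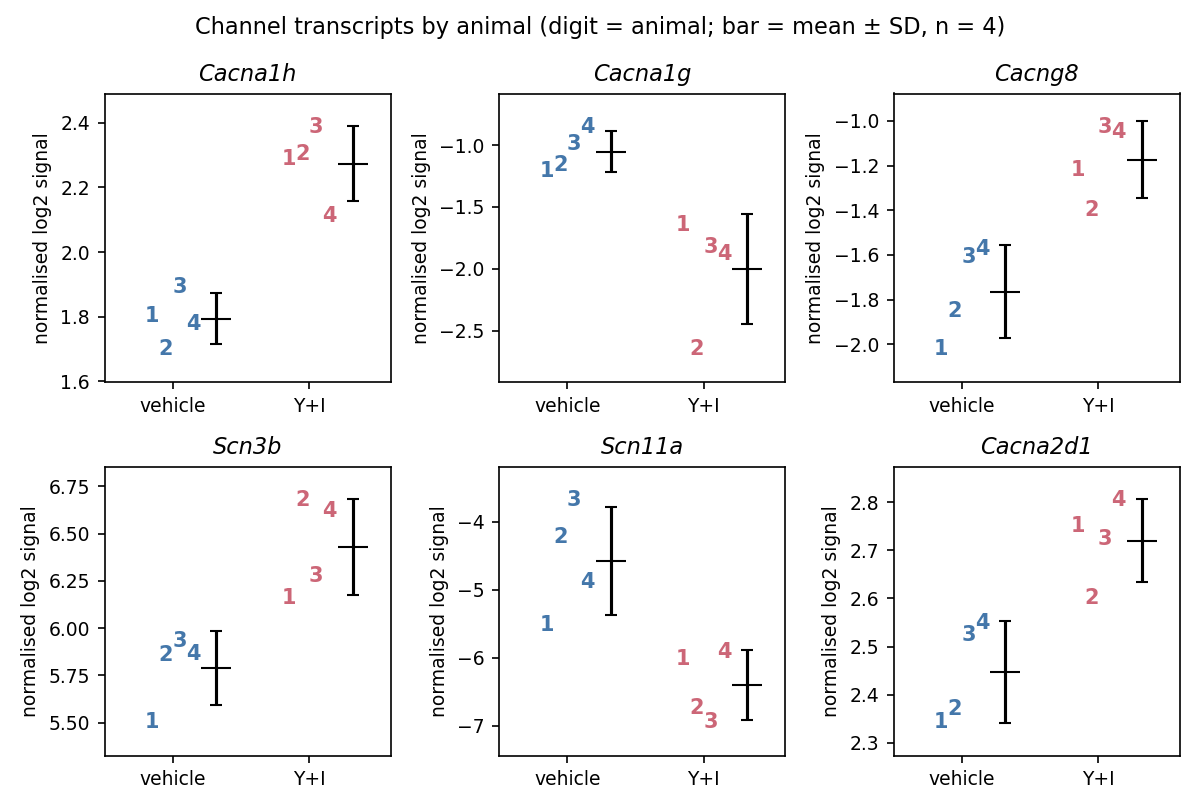
Normalised log2 signal (vertical axes, separate scale per gene) of 6 channel genes in each of the 8 animals; digits are animal numbers within a group, which do not pair animals across groups, and bars are mean ± SD of 4. In all 6 panels the vehicle and Y+I animals do not overlap, with Cacna1h, Cacng8, Scn3b and Cacna2d1 higher and Cacna1g and Scn11a lower in Y+I.

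Cacna1g is strongly expressed in thalamus, so markers of thalamus and habenula were read beside it. Of 10 listed, 7 were tested and Gpr151 and Pou4f1 were not well above background on any array. Their summed signal was 1.66 to 2.15 in vehicle and 0.96 to 1.21 in Y+I, without overlap. Slc17a6, the vesicular glutamate transporter of subcortical neurons, fell by 1.17 (adjusted p = 0.0291), and 1 of the 7 passed. Calb2, the calcium buffer calretinin, differed by -0.83 (adjusted p = 0.0571), while Tcf7l2, a thalamic transcription factor, differed by 0.09 (adjusted p = 0.820). Striatal markers also summed to less in Y+I (0.93 to 1.46 against 1.54 to 1.93), with 1 of 7 called lower (Drd2, at -0.60 with an adjusted p of 0.0278). All 7 had a difference below 0, and Drd1, Drd2, Rgs9 and Penk had every Y+I animal below every vehicle animal. Drd1 was kept through vehicle alone, with 0 of 4 Y+I arrays well above background. The part of thalamic, habenular or striatal tissue in the Cacna1g difference was not tested. For hippocampal neurons 1 of 9 markers passed, Camk2a, the alpha subunit of CaM kinase II, at 0.78 (adjusted p = 0.0366). The median of this list was 0.50. Wfs1 at 1.19 (limma adjusted p = 0.112) and Neurod6 at 0.59 (0.0964) also had every Y+I animal above every vehicle animal. C1ql2 (-0.08) and Grik4 (-0.02) lay below 0. With 1 array left out, Slc17a6 passed in 2 of 8 fits (adjusted p from 0.0159 to 0.0967) and Camk2a in 0 of 8 (0.0510 to 0.106). Interneuron markers summed to 5.18 to 5.33 in vehicle and 4.95 to 5.22 in Y+I, with 0 of 7 called. Gad1 (-0.29), Sst (-0.29) and Vip (-0.51) had every Y+I animal below every vehicle animal, as 6.65% of all features did. The rest overlapped, with Gad2 at 0.38, Npy at 0.26, Lhx6 at 0.09 and Pvalb at -0.03. The part of hippocampal neurons or interneurons in the rise of Cacna1h was not tested.

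**Figure D3:**
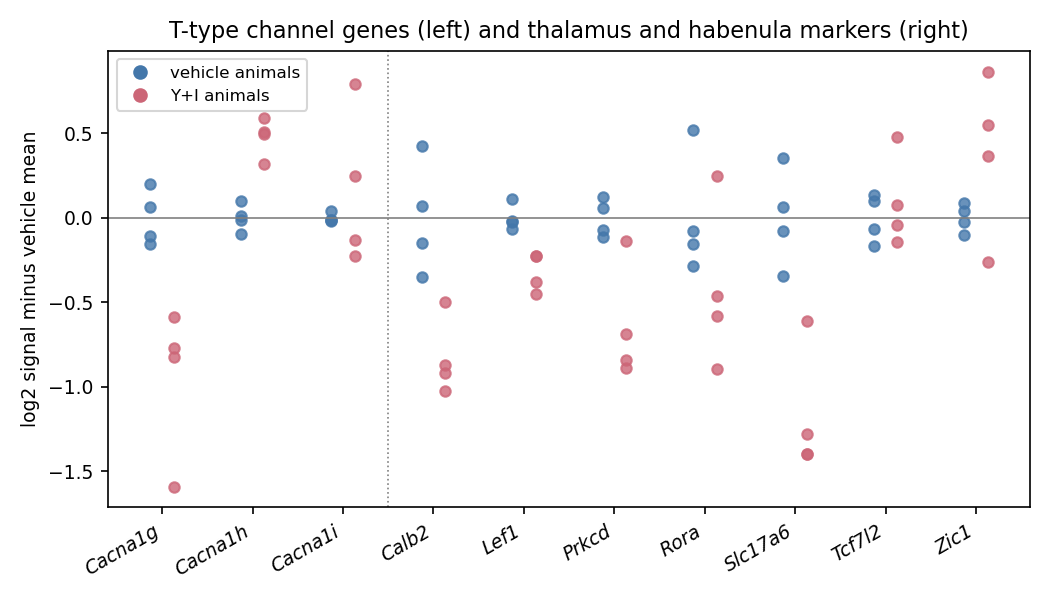
Log2 signal of each animal minus the vehicle mean of the gene (vertical axis) for the 3 T-type pores and the 7 thalamus and habenula markers tested, with 4 vehicle and 4 Y+I animals as points. Cacna1g, Calb2, Lef1, Prkcd and Slc17a6 have all Y+I animals below all vehicle animals, whereas Tcf7l2, Rora, Zic1 and Cacna1i overlap.

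Of the 8 gamma and TARP genes, 7 were tested, 6 lay above 0 and 0 passed the test, with a median of 0.22. Cacng1 counts among the 6 at 0.00, and its sign turned under some other scalings. Cacng8, a TARP prominent in hippocampus, measured -2.02, -1.85, -1.61 and -1.57 in vehicle and -1.22, -1.40, -1.03 and -1.05 in Y+I. All Y+I animals lay above all vehicle animals. The difference was 0.59 ± 0.14 (1.51-fold, 95% interval 0.28 to 0.90, limma adjusted p = 0.0666), from -1.76 ± 0.21 to -1.17 ± 0.17. It passed under 6 of 12 other settings, with normexp giving 0.56 (adjusted p = 0.0336), and with 0 of 8 arrays left out.

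Cacng6, which belongs with the muscle gamma subunit Cacng1 rather than with the TARPs, had the highest difference of all 34 genes at its brighter probe. It measured -5.49, -4.98, -5.69 and -5.83 in vehicle and -4.59, -4.35, -4.94 and -5.24 in Y+I. The groups overlapped between vehicle animal 2 and Y+I animal 4, and the difference of 0.72 ± 0.24 (1.65-fold) had a limma adjusted p of 0.171. The other probe differed by -0.16, its Y+I animals running from -7.13 to -5.27 around the vehicle range of -6.23 to -5.64. That probe was kept through vehicle alone, with 2 of 4 Y+I arrays well above background, and under normexp it differed by 0.27. The mean of both probes differed by 0.28 (adjusted p = 0.553), while normexp put the brighter probe past the threshold at 0.59 (0.0314), so the result turns on the probe and on the background.

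Cacng2, or stargazin, the first TARP described, measured 2.83, 2.82, 2.80 and 2.72 in vehicle and 2.90, 3.11, 2.85 and 3.19 in Y+I. The groups did not overlap, by a narrow margin, and the difference was 0.22 (adjusted p = 0.354). Cacng4 differed by 0.47 (adjusted p = 0.280), with Y+I animal 1 inside the vehicle range. The TARP Cacng3 differed by -0.21, Cacng7 by 0.06 and the muscle subunit Cacng1 by 0.00, and all 3 overlapped. Cacng6, Cacng8 and Cacng7 lie in that order within chr1:64051888-64114323 and had differences of 0.72, 0.59 and 0.06; these were not tested against each other, and the first is read from the brighter of 2 probes. Within arrays, Cacng4 minus Cacng8 differed by -0.12 between groups (exact two-sided permutation p = 0.543).

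Of the 6 sodium channel alpha genes tested and reported here, 5 lay below 0, with a median of -0.16 and 0 calls. The pores of central axons and dendrites overlapped between groups. Scn2a measured 2.89, 2.77, 2.97 and 2.82 in vehicle and 2.66, 3.01, 2.61 and 3.11 in Y+I. The Y+I animals lay on both sides of vehicle, and the difference was -0.01 with a 95% interval of -0.31 to 0.29. Scn1a, the pore most prominent in interneurons, differed by -0.10 (-0.48 to 0.27), and Scn3a, higher in the developing brain, by -0.21 (-0.56 to 0.14). Scn8a, the pore of mature axon initial segments and nodes, differed by 0.28 (-0.10 to 0.67).

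The 2 alpha genes with the lowest differences are known mainly from peripheral tissue and were dim here. Scn11a, a pore of nociceptive sensory neurons, measured -5.52, -4.22, -3.69 and -4.88 in vehicle and -6.02, -6.74, -6.95 and -5.91 in Y+I. The groups did not overlap, with vehicle animal 1 nearest to the Y+I animals. It was kept through vehicle alone, since 2 of 4 Y+I arrays were well above background, so no fold is given. The difference of -1.83 ± 0.40 did not pass in limma (adjusted p = 0.0548), and under normexp it was -0.36 (adjusted p = 0.280), so its size depends on how signal near background is treated. Without vehicle animal 1 it was -2.14 with an adjusted p of 0.0377.

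Scn4a, the skeletal muscle pore, measured -6.48, -6.42, -6.36 and -6.36 in vehicle and -6.71, -7.14, -7.38 and -6.64 in Y+I. Although the groups did not overlap, 1 of 4 Y+I arrays was well above background and the difference of -0.56 ± 0.17 (limma adjusted p = 0.138) turned to 0.19 under normexp. Of 8 sensory neuron markers 6 were tested and 2 fell, the intermediate filament Prph by 2.06 and the peptide gene Calca by 2.46 (adjusted p of 0.0150 and 0.0132). Isl1 was not well above background on any array. Their summed signal was 0.72 to 1.38 in vehicle and 0.30 to 1.21 in Y+I. Of 8 skeletal muscle markers 5 were tested and 1 fell, the embryonic myosin Myh3, by 2.56 (adjusted p = 0.00139), with sums of -0.40 to -0.13 and -0.94 to -0.48. The other 4 overlapped between groups, with Acta1 at -0.24, Myh1 at -0.01, Mb at 0.14 and Myh2 at 0.31. The part of such cells in the Scn11a and Scn4a differences was not tested.

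Of the 3 sodium channel beta genes reported here, 3 lay above 0, with a median of 0.33 and 0 calls. This direction held for all 3 under each of the 5 other scalings, but Scn4b turned to -0.13 without vehicle animal 3. Scn3b, a beta subunit of neurons, measured 5.50, 5.86, 5.93 and 5.86 in vehicle and 6.16, 6.68, 6.28 and 6.62 in Y+I. All Y+I animals lay above all vehicle animals. The mean went from 5.79 ± 0.19 to 6.43 ± 0.25, a difference of 0.64 ± 0.15 (1.56-fold, 95% interval 0.30 to 0.99) with a limma adjusted p of 0.0730. Under normexp it was 0.62 with an adjusted p of 0.0344, and 4 of 12 other settings but 0 of 8 fits with an array left out put it past the threshold. Its probe lies at chr8:43253930-43253989 on the plus strand.

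The other beta subunits overlapped between groups. Scn2b, which is linked to the pore by a disulphide bond, differed by 0.33 (95% interval -0.16 to 0.81). Scn4b, whose tail can block the open pore and pass resurgent current, differed by 0.17 (-0.52 to 0.86) with vehicle animals between -0.87 and 0.65. Within arrays Scn2b minus Scn4b differed by 0.16 (exact two-sided permutation p = 0.714).

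The Cav2 pores, which admit the calcium that triggers transmitter release, all lay above 0 and did not pass the test. Cacna1e, the R-type pore, measured -4.42, -4.65, -4.63 and -4.48 in vehicle and -4.53, -4.37, -4.25 and -3.80 in Y+I. Y+I animal 1 lay inside the vehicle range, and the difference was 0.31 ± 0.16 (limma adjusted p = 0.391). Cacna1a, the P/Q-type pore, differed by 0.25 at its brighter probe, where Y+I animal 4 stood at -1.52 and the other animals of both groups between -2.50 and -2.28. At its dimmer probe, which differed by 0.80, all Y+I animals (-4.86 to -3.34) lay above all vehicle animals (-5.21 to -4.93), with Y+I animal 1 highest. The mean of both probes differed by 0.52 (unadjusted p = 0.0270, limma adjusted p = 0.243). Cacna1b, the N-type pore, differed by 0.16 (95% interval -0.08 to 0.41).

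The L-type Cav1 pores, which couple depolarisation to transcription, gave small differences. Cacna1c measured -2.76, -2.63, -2.13 and -2.56 in vehicle and -2.51, -2.18, -2.56 and -2.15 in Y+I. The groups overlapped fully, and the difference was 0.17 ± 0.16 (95% interval -0.19 to 0.54, limma adjusted p = 0.669), with 0.15 at the other probe. Cacna1d, the other neuronal L-type pore, differed by 0.03 (-0.43 to 0.49), and Cacna1s, the muscle pore, by 0.17 (-0.26 to 0.60).

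Among the alpha2delta subunits, which raise the number of channels at the membrane and bind gabapentin in the case of Cacna2d1 and Cacna2d2, 1 of 3 tested lay above 0. Cacna2d1 measured 2.34, 2.37, 2.52 and 2.55 in vehicle and 2.75, 2.60, 2.72 and 2.80 in Y+I. The groups did not overlap, and the difference was 0.27 ± 0.09 (1.21-fold, 95% interval 0.06 to 0.49, limma adjusted p = 0.197). Cacna2d2 was dim, measuring -6.33, -6.16, -6.00 and -6.15 in vehicle and -6.64, -7.03, -7.16 and -5.90 in Y+I. Only 1 of 4 Y+I arrays was well above background, Y+I animal 4 lay above all vehicle animals, and the difference of -0.52 (adjusted p = 0.363) turned its sign under normexp. Cacna2d1 minus Cacna2d2 within arrays was 8.61 ± 0.09 in vehicle and 9.40 ± 0.51 in Y+I, but Cacna2d2 was kept through vehicle alone, and the difference of 0.80 became 0.045 under normexp, so no p is read from this contrast. Cacna2d3 differed by -0.10, with Y+I animal 2 at -1.11 and the other Y+I animals between -0.38 and 0.32.

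The beta subunits of calcium channels, cytoplasmic chaperones of the pore, gave 3 differences above 0 of 4, and 0 calls. Cacnb3 measured 3.38, 3.48, 3.45 and 3.28 in vehicle and 3.61, 3.62, 3.46 and 3.55 in Y+I. Y+I animal 3 lay inside the vehicle range, and the difference was 0.16 ± 0.09 (limma adjusted p = 0.441). Cacnb1 differed by 0.10 and at its dimmer probe by 0.40, where vehicle ran from -0.85 to -0.58 and Y+I from -0.58 to -0.11. Cacnb2 differed by 0.43 (95% interval -0.26 to 1.12) and passed the threshold under normexp. Cacnb4, the subunit mutated in the lethargic mouse, differed by -0.17 at one probe and 0.19 at the other.

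**Figure D4:**
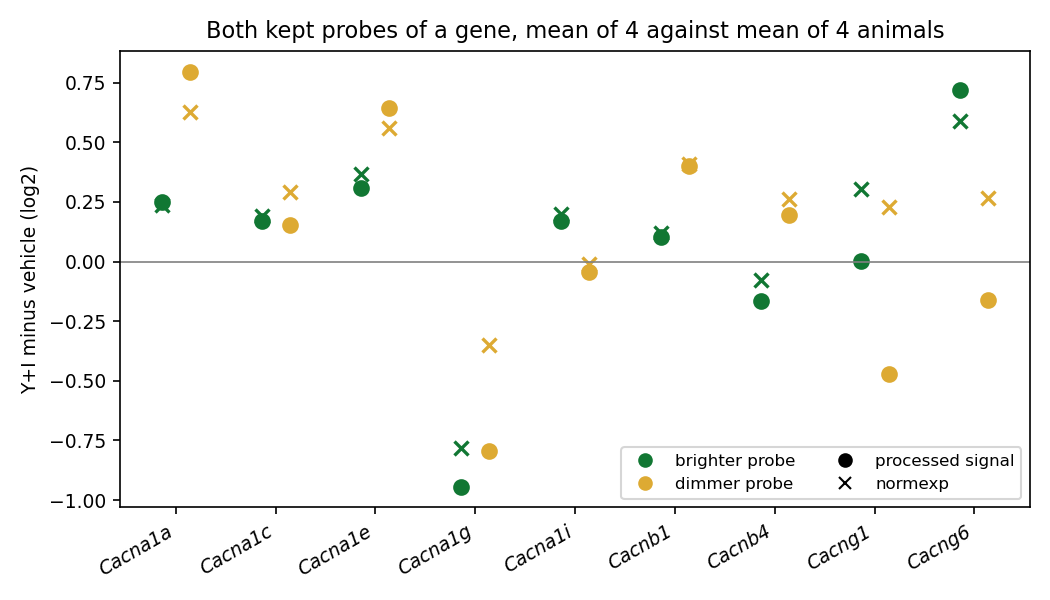
Difference between groups (Y+I minus vehicle, log2, vertical axis) at both probes of 9 channel genes with 2 probes kept, as means of 4 against 4 animals, for the processed signal (circles) and after normexp background correction (crosses). Cacna1g is below 0 at both probes under both, whereas Cacna1i, Cacnb4 and Cacng6 have circles on both sides of 0.

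Genes on more than 1 probe show how far a value belongs to its probe. Of 9 genes with 2 kept probes, Cacna1a, Cacna1c, Cacna1e and Cacnb1 were above 0 at both probes and Cacna1g below 0 at both. Cacna1i, Cacnb4 and Cacng6 had probes of opposite sign, and Cacng1 gave 0.00 and -0.47. Both Cacng1 probes were well above background on 1 of 4 Y+I arrays, and the dimmer Cacng6 probe on 2 of 4. Under normexp the probes of Cacng1 (0.31 and 0.23) and of Cacng6 (0.59 and 0.27) all lay above 0. The differences of these 2 genes thus also depend on how signal near background is treated. Across the 5 other scalings, 29 of the 34 genes kept the sign of their difference. The sign turned for Cacna2d2, Scn3a and Scn4a under normexp, for Cacng1 under quantile normalisation, cyclic loess and the value table, and for Scn2a in the value table.

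The 6 genes that were not tested were dim in both groups. Cacna1f, the retinal L-type pore, and Cacna2d4, a subunit of photoreceptors, were not well above background on any array. Scn10a, a pore of sensory neurons, was so on 1 vehicle array and Scn7a, a sodium sensor of glia and circumventricular organs, on 2, with 0 of 4 Y+I arrays for both. Scn9a, another pore of sensory neurons, was so on 3 vehicle and 0 Y+I arrays, and Cacng5, a TARP, on 3 and 1. No fold is given for these genes. Fewer Y+I than vehicle arrays detected 4 of the 6, beside the lower share of all spots well above background in Y+I, and the part of that share was not tested.

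Of 16 listed pairs of related subunits, 13 had both members tested and 11 are reported here. Cacna1g with Cacna1h reached the smallest exact p that the design allows, which the opposite separation of both genes had fixed, and 0 pairs passed after adjustment. Beside Cacna2d1 with Cacna2d2, the other 9 had exact two-sided permutation p-values of 0.229 to 0.943.

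**Figure D5:**
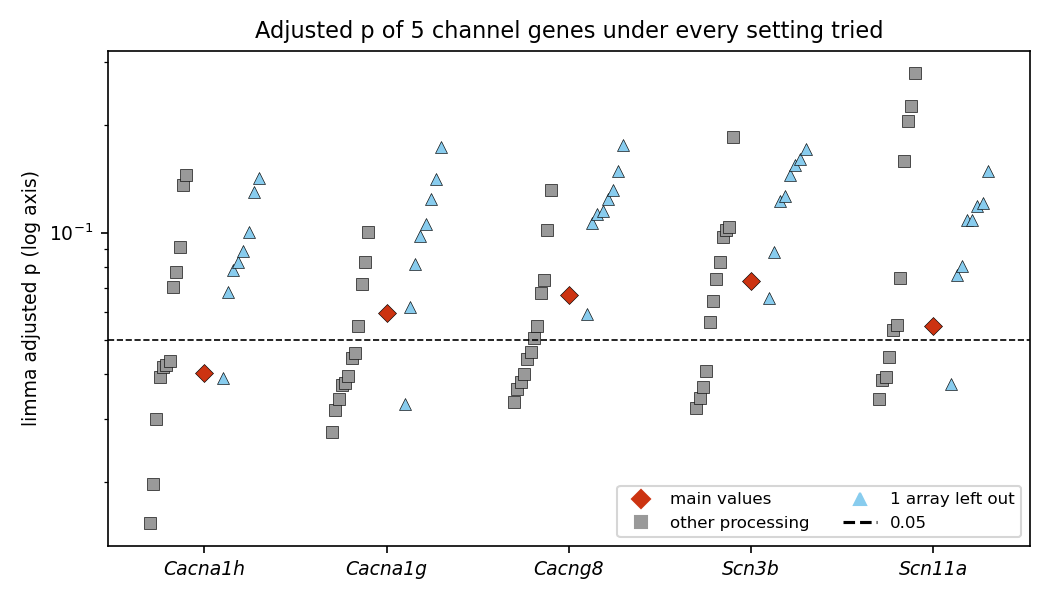
Limma adjusted p (vertical log axis) of the 5 channel genes with the smallest p as reported (diamonds), under other processing settings (squares) and with 1 array left out (triangles); the dashed line is 0.05. All 5 genes have settings on both sides of the line, with Cacng8 and Scn3b above it in every fit with 1 array left out.

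Genes that work with these channels were read from lists chosen by function. Of 23 listed partners of sodium channels, such as the anchoring ankyrins and the FGF homologous factors, 21 were tested and 0 passed, with a median of 0.02. The 2 with the smallest p were Nrcam and Fgf11. Nrcam, an adhesion molecule of nodes and initial segments, differed by 0.25 (limma adjusted p = 0.185). Fgf11, an FGF homologous factor, differed by -0.87 (0.111), which turned to 0.14 under normexp. Fgf11 was kept through vehicle alone, with 1 of 4 Y+I arrays well above background, so its lower mean in Y+I is partly set by the filter.

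Of 29 listed partners of calcium channels 27 were tested, 3 fell and 0 rose, with a median of 0.08. Stac2, an adaptor that reduces the inactivation of L-type channels, measured -0.42, -1.05, -1.28 and -0.82 in vehicle and -2.05, -2.17, -2.24 and -1.74 in Y+I. It fell by 1.16 on the log2 scale (SE 0.19, limma adjusted p = 0.0222). Dpp10, a potassium channel subunit listed here as a possible partner, measured -3.18, -3.73, -3.37 and -3.40 in vehicle and -4.29, -4.23, -4.27 and -4.07 in Y+I. It fell by 0.80 (SE 0.13, adjusted p = 0.0194), and by normexp the difference was -0.31 (0.165). Stx1a, the syntaxin that binds Cav2 pores at release sites, measured 3.44, 3.44, 3.51 and 3.41 in vehicle and 2.96, 2.90, 2.78 and 3.14 in Y+I. It fell by 0.50 (SE 0.10, adjusted p = 0.0391). None of the 3 overlapped between groups. Each lost the call with some arrays left out. For Stac2 these were vehicle animals 2 and 4 and Y+I animals 1 and 2 (adjusted p of 0.0510, 0.0792, 0.0523 and 0.0567), and for Dpp10 vehicle animals 3 and 4 and Y+I animal 1 (0.0623, 0.0743 and 0.0511). Stx1a passed without Y+I animal 4 (0.0314) and ran from 0.0692 to 0.124 without any other array.

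Among 14 related pore channels 10 were tested and 0 passed, with a median of -0.04. The pacemaker channel Hcn3 had the smallest p (-0.42, limma adjusted p = 0.0803), followed by the lysosomal channel Tpcn2 (-0.41, 0.342). Under normexp the differences were -0.10 for Hcn3 (limma adjusted p = 0.611) and -0.20 for Tpcn2 (0.295).

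Of 24 listed genes for calcium release, store entry, extrusion and buffering 23 were tested, 1 rose and 2 fell, with a median of 0.01. Atp2a3, a calcium pump of the endoplasmic reticulum, measured -2.57, -2.72, -3.09 and -2.85 in vehicle and -3.81, -4.44, -4.17 and -3.75 in Y+I. It fell by 1.23 (SE 0.18, limma adjusted p = 0.0132) and passed in all 8 fits with 1 array left out (0.0205 to 0.0492). Atp2b4, a plasma membrane calcium pump, measured -5.52, -5.40, -5.08 and -5.21 in vehicle and -6.24, -6.14, -6.77 and -5.93 in Y+I. It fell by 0.96 (SE 0.19, adjusted p = 0.0356), but 1 of 4 Y+I arrays was well above background and the difference was 0.01 under normexp. It passed without Y+I animal 3 or 4 (0.0354 and 0.0360) and ran from 0.0642 to 0.116 without any other array. Atp2b1, the plasma membrane pump of most neurons, measured 5.36, 5.55, 5.44 and 5.46 in vehicle and 5.88, 5.87, 6.01 and 6.33 in Y+I. It rose by 0.57 (SE 0.12, adjusted p = 0.0498), with no overlap between groups, and missed the threshold whichever of the 8 arrays was left out (0.0592 to 0.151). Against 2.33% of all features, 3 of 27 and 3 of 23 genes on these 2 lists were called, and the latter count includes Atp2b4, which was kept through vehicle alone.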

How the data were processed

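RNA of 4 vehicle and 4 Y+I hippocampi, from separate animals per the labels, was hybridised to Agilent arrays in a single colour (Cy3). Per the file headers, the authors obtained each spot's intensity with Agilent Feature Extraction 10.5.1.1; its processed intensity is already background-subtracted but not scaled across arrays. In the authors' deposited value table the log2 values have a scale and centring that the sources used here do not give. The table ran in the same direction as the scanner values (r of at least 0.998 per array, 75th percentile near 0.01, medians from -3.51 to -3.35) and was an alternative.

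Processed signals were put on the log2 scale and centred on the 75th percentile of the array. Control spots and outlier flags were dropped, spots of a probe averaged, and no spot was saturated. A probe was kept (21370 of 30367) if all 4 arrays of either group showed it well above background, on at least 50% of its spots and with at least 3 values in each group. Symbols came from RefSeq assembly GRCr8 (48 of the 52 channel probes by accession, 4 by symbol; Scn2a is Scn2a1 in the files). The brightest probe stood for a gene. All 18803 features were fitted together with limma 3.58.1 (lmFit, eBayes; R 4.3.3), and two-sided p-values were adjusted by Benjamini-Hochberg at a threshold of 0.05. Within-array contrasts had exact permutation tests. The procedure was tested on simulated data. Positions are those in the files, on rn4; the part of a transcript that a probe covers was not analysed here.

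The channel genes, subunit pairs, partner lists and marker lists were chosen with earlier results of these data known. Full statistics were given for genes called, the 3 lowest and 3 highest differences and the smallest p of each role; of each partner list, its called genes and the 2 with the smallest p were named. Results of 2 channel genes are not reported here; they stay in the fits and in counts over all 34. Other channel genes were described to account for the rest, and other markers were named after their values were seen. Alternatives were quantile, median and cyclic loess scaling, normexp (offset 50), the value table, 2 other filters, the mean of probes, an animal-number block, a trend and robust variance, array weights, a threshold of 0.10 and arrays left out. Plots used matplotlib 3.10.9 (Python 3.11.15).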

Additional observations from a re-analysis of the deposited data

Results flagged for a closer look

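Among the 64 groups of 4 animals examined for the 32 channel genes tested and reported, 1 held an animal far from the other 3, where chance gives about 1 in 20. For Cacna1i, vehicle animal 1 stood at 1.82 and the other vehicle animals between 1.76 and 1.77, so the gap is small and stands out because those 3 lay close together.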

How the results depend on the processing

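The arrays limit what can be told: there are 4 animals a group, the spread is larger in Y+I, and dim genes depend on the background. As reported, 1 channel gene passed as higher and 0 as lower. The higher and lower counts were 1 and 1 with quantile normalisation, 1 and 2 with median centring, 3 and 2 with cyclic loess, 4 and 1 with normexp, 1 and 1 on probes well above background on all 8 arrays, 5 and 2 without a filter on background, 3 and 2 with a trend and robust variance, 1 and 1 with array weights and 3 and 2 at a threshold of 0.10. Calls over all features moved too, from 139 higher and 300 lower as reported to 401 and 203 with normexp and 3361 and 526 without a filter, where the 5 higher include Cacna1f and Cacna2d4, not well above background on any array. The value table and the mean of probes gave 1 and 0. Without Y+I animals 2 and 3 together 0 and 0 passed. With 1 array left out, higher ran from 0 to 1 and lower from 0 to 1, and 0 of either passed without vehicle animal 2, 3 or 4 or Y+I animal 1 or 3. Which genes passed differed: Cacna1h was lost under quantile, median and normexp processing, while Cacna1g passed as lower under each of them.

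Animal numbers did not pair the groups (correlations of same-numbered animals of 0.05, -0.11, -0.04 and 0.04). With the animal number as a replicate block, 0 channel genes passed as higher and 0 as lower (smallest adjusted p 0.0626), and 144 features in place of 439 passed in all.

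Under normexp the sign turned for Atp2b4 (0.014), Fgf11 (0.14), Scn4a (0.19), Cacna2d2 (0.19) and Scn3a (0.028), and for the within-array contrasts of Scn1a with Scn2a (0.021) and Cacna1c with Cacna1d (-0.044). The cause was not tested. With 1 array left out, 5 contrasts took both signs: Scn1a with Scn2a ran from -0.18 to 0.020, Scn2b with Scn4b from -0.069 to 0.44, Cacna1c with Cacna1d from -0.13 to 0.28, Cacna1a with Cacna1b from -0.14 to 0.20 and Cacng4 with Cacng8 from -0.27 to 0.015.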
